A study of Mus musculus with 2 samples.

Results

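S100a4, S100a6, S100a10, S100a11, S100a13, Lgals1 and Lgals3 are 5 S100 genes and 2 galectin genes, 7 of the 32285 genes counted in a single-cell transcriptome of mouse thymic invariant natural killer T (iNKT) cells. They were chosen by name with earlier results of these data known, so counts of members called are descriptions and not a test. Their levels were compared across sets of cells separated by other genes. The cells were sorted from thymi of Ctrl mice and of T-KO mice, all on the C57BL/6 background. T-KO mice carry a floxed Kidins220 gene and a Cre recombinase under the proximal Lck promoter, which is active from an early thymocyte stage onwards, so that the deletion is directed to the T lineage. Cells of 4 thymi were pooled for each genotype, exact ages are not in the labels, and the study's mice ranged from young to middle-aged adults. Stage 0 cells were sorted as TCRβ+ CD1d tetramer+ CD24+ NK1.1- and stage 3 cells as TCRβ+ CD1d tetramer+ NK1.1+ CD24- CD44+, each in 2 replicas per genotype. The 8 populations were stained with hashtag antibodies, which carry an oligonucleotide barcode, and run as 1 pooled droplet library read from the 5′ end of the transcripts.

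S100 proteins are small EF-hand proteins, most of which change shape on binding calcium and then grip annexins, myosin or other partners inside the cell. Galectins are lectins that bind β-galactosides on glycoproteins, can be exported without a signal peptide, and act on T cells by crosslinking surface glycoproteins such as CD7, CD43 and CD45. Genes of both families are known to be expressed in effector and memory T cells and in myeloid cells, and S100a6 and S100a4 are used as markers of mature innate-like T cells.

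The counts placed nearly all hashtag unique molecular identifiers (UMIs), 99.9%, on the hashtag rows 11 to 18 of the table, and neither labels nor methods say which population each of these rows stands for. No row was therefore assigned to a stage or genotype, nothing is compared between genotypes, and no test was run over the rows. Of 16179 barcodes, 10007 cells were kept, 4249 on the odd rows 11, 13, 15 and 17 and 5758 on the even rows 12, 14, 16 and 18, with 2283162 to 14601545 gene UMIs a row. Kidins220 itself, the deleted gene, was counted in CPM, the UMIs of a gene scaled to the same total of gene UMIs in every row or set. It was at 19.7, 21.03, 14.5 and 13.9 CPM on rows 11, 13, 15 and 17 and at 28.4, 35.2, 17.5 and 20.4 CPM on rows 12, 14, 16 and 18, which assigns no row, since the deposited counts do not separate the deleted part of the gene. Defining markers of the labelled cells differed between the rows: Klrb1c, which encodes NK1.1, was at 328 to 444 CPM on the even rows and at 4.78 to 6.57 CPM on the odd rows, while Cd24a was at 23.3 to 34.2 CPM against 313 to 365 CPM.

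Cells of odd rows were split by the first match of 4 marker genes, into Cd79a cells (810), Cst3 cells (972), Rag1 cells (418), Ikzf2 cells (1106) and remaining cells (943). Even rows were split into Ccl5-high cells (1051), Izumo1r cells without Ccl5 (538) and other cells (4169). Cd79a, Cst3, Rag1 and Ikzf2 are also in the marker lists below, so these sums were in part fixed by the gates. In its own set Cd79a alone was at 2473 to 2784 CPM, Cst3 at 9069 to 12857 CPM, Rag1 at 150 to 270 CPM and Ikzf2 at 843 to 884 CPM. The gates left Rag1 at 0 in Ikzf2 and remaining cells. The summed level of 5 B cell markers was 4234 to 4934 CPM in Cd79a cells and at most 95.8 CPM in every other set. The 9 markers of dendritic and other myeloid cells summed to 14570 to 21074 CPM in Cst3 cells and to 3498 to 4207 CPM in Cd79a cells. In Cd79a cells the list's class II gene H2-Ab1, also a product of B cells, was at 2805 to 3070 CPM and Cst3 at 546 to 1157 CPM. The odd rows thus held cells with markers other than those of the labelled iNKT cells. Recombination and double-positive thymocyte markers summed to 1643 to 2156 CPM in Rag1 cells and 490 to 555 CPM in Ikzf2 cells, and the markers of Helios-positive, signalled thymocytes to 1933 to 2224 CPM in Ikzf2 cells. Markers of NK1.1-positive iNKT1 cells summed to 2577 to 3562 CPM in the 3 sets of even rows and to at most 414 CPM in any set of odd rows. Of this list the T cell receptor segment Trav11 was at 39.5 to 56.5 CPM on the even rows and 0 to 1.70 CPM in Ikzf2 cells. Whether Ikzf2 cells and even-row cells are of the same lineage was not tested.

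All 5 S100 members lie on mouse chromosome 3 and 4 of them fall into pairs that lie close to each other. In the RefSeq annotation of GRCm38.p6, S100a13 spans chr3:90514233-90524581, S100a4 spans chr3:90603770-90606045 and S100a6 begins 6.85 kb after the end of S100a4, at chr3:90612894-90614414. S100a11 (chr3:93520496-93526288) and S100a10 (chr3:93555117-93564645) lie 28.8 kb from each other and 2906 kb beyond S100a6. Lgals3 is at chr14:47373860-47386167 and Lgals1 at chr15:78926725-78930465. Each stretch covers the exons and introns of the gene. RefSeq promoter windows, from 250 bases before to 50 bases after a start, were found for 5 of the 7 members. The windows of S100a4 and S100a6 are printed because these genes lie close and differed the same way in the comparisons below. That of S100a11 is printed because it went the other way on the even rows. That of Lgals3 is printed because few cells held most of its counts in the sets other than Cst3 cells. Each reads 5′ to 3′ on the plus strand, and capitals mark the searched letters on either strand.
S100a4, chr3:90603520-90603819: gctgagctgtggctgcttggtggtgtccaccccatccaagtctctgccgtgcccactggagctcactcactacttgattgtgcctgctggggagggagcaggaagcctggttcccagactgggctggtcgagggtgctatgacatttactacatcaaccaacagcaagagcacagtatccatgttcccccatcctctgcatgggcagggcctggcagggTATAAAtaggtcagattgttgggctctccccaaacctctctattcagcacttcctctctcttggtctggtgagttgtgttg
S100a6, chr3:90612644-90612943: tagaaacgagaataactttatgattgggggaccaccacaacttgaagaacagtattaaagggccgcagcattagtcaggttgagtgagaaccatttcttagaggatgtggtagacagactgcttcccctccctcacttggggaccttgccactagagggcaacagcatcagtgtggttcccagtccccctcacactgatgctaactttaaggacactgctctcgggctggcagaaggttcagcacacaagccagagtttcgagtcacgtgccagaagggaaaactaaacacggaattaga
S100a11, chr3:93520246-93520545: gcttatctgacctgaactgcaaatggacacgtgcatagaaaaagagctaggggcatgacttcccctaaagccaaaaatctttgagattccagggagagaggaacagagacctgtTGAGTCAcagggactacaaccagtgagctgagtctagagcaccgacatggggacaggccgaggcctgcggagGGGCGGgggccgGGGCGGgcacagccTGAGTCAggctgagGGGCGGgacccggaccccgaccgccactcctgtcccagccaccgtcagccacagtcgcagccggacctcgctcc
Lgals3, chr14:47373610-47373909: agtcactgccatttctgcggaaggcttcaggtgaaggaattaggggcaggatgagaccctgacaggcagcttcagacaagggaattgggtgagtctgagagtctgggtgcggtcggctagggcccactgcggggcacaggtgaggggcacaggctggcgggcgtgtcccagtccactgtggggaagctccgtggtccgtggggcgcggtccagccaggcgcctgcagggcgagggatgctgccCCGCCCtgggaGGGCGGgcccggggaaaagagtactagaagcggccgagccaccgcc
S100a4 held the TATA letters TATAAA 31 bases before its start, which 13.6% of all 32851 windows hold somewhere. S100a11 held the AP-1 letters TGACTCA at 2 places, read on the other strand, a motif found in 5.20% of windows, and 3 GC boxes (GGGCGG, in 35.7% of windows). Lgals3 held 2 GC boxes beside its start. None of these letters, nor the T-box letters GGTGTGA (3.98% of windows), was in the S100a6 window. S100a13, whose window is not printed, held the T-box letters 164 bases before the start used for that window, chr3:90514185-90514484. This start and the T-box letters both lie inside the gene span given above, after its first base. No 2 motifs overlapped, and a match is a description of letters and not of binding.

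S100a6, or calcyclin, was high in every even-row set and low in the Ikzf2 and Rag1 cells of the odd rows. On rows 12, 14, 16 and 18 it was at 1542, 1481, 2261 and 2019 CPM in Ccl5-high cells and at 727, 802, 1004 and 944 CPM in Izumo1r cells. On rows 11, 13, 15 and 17 it was at 27.1, 29.3, 32.7 and 42.0 CPM in Ikzf2 cells and at 18.4, 14.3, 13.5 and 10.4 CPM in Rag1 cells. No even row overlapped any odd row in these sets. Cst3 cells lay between, at 950, 556, 650 and 539 CPM, and Cd79a cells at 186, 163, 585 and 241 CPM, with row 15 high. In order of the median over 4 rows the sets ran Ccl5-high, other even-row cells, Izumo1r, Cst3, Cd79a, remaining, Ikzf2 and Rag1. The rows overlapped between neighbours in this order except other even-row and Izumo1r cells, Cd79a and remaining cells, and Ikzf2 and Rag1 cells, which lay apart.

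S100a4, which binds non-muscle myosin and is linked to cell motility, was highest in the Cst3 cells, at 614, 293, 384 and 308 CPM on rows 11, 13, 15 and 17. Ccl5-high cells overlapped these values, at 209, 224, 402 and 418 CPM on rows 12, 14, 16 and 18, whereas Izumo1r cells were lower on each of these rows, at 91.2, 57.4, 123 and 118 CPM. In Ikzf2 cells it was at 11.9, 8.38, 1.46 and 8.52 CPM, and in Rag1 cells the 4 rows held 2, 3, 1 and 1 UMIs in all. The gene was thus close to absent from the counts of Ikzf2 and Rag1 cells. Every set overlapped the next one in the order of medians.

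S100a10, the light chain partner of annexin A2, and S100a11, a partner of annexin A1, followed another order. Izumo1r cells, not Ccl5-high cells, came first for both genes. S100a10 was at 1019, 1030, 1609 and 1418 CPM in Izumo1r cells and at 945, 962, 1175 and 1242 CPM in Ccl5-high cells on rows 12, 14, 16 and 18. It stayed at 643, 535, 477 and 430 CPM in Ikzf2 cells, above the Rag1 cells at 123, 86.5, 75.1 and 94.8 CPM. S100a10 was therefore well counted in Ikzf2 cells, where S100a4 and S100a6 were low. S100a11 was at 1037, 1012, 990 and 1248 CPM in Izumo1r cells, at 768, 751, 914 and 911 CPM in Ccl5-high cells and at 1013, 866, 932 and 746 CPM in Cst3 cells. Ikzf2 cells held 309, 250, 178 and 159 CPM of S100a11 and Rag1 cells 58.4, 43.3, 37.2 and 54.0 CPM. The GENCODE annotation lists a processed copy, S100a11-ps, and the share of reads it could take was not tested.

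S100a13, which takes part in the export of proteins without a signal peptide, had the narrowest spread of the 7. Its medians ran from 53.5 CPM in Rag1 cells to 204 CPM in Ccl5-high cells, and all 3 sets of even rows, at 150 to 236 CPM, lay above all sets of odd rows, at 46.4 to 109 CPM. Among the odd rows the Cst3, Ikzf2, Cd79a and remaining cells overlapped one another in the order of medians.

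Lgals1, which encodes galectin-1, did not separate the even-row cells from the Ikzf2 and Rag1 cells of the odd rows. It was at 420, 400, 458 and 353 CPM in Ikzf2 cells and at 350, 497, 486 and 506 CPM in Rag1 cells on the odd rows. Ccl5-high cells held 450, 592, 924 and 964 CPM and Izumo1r cells 279, 289, 706 and 710 CPM on rows 12, 14, 16 and 18. The Rag1 cells, where most S100 members were at their lowest, thus lay within the range of the Izumo1r cells. Only the Cd79a cells, at 180, 158, 240 and 147 CPM, lay apart from all other sets. GENCODE lists processed copies of Lgals1 too, and their share of reads was not tested.

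Lgals3, which encodes galectin-3, was carried by the Cst3 cells, at 619, 402, 418 and 385 CPM. Ikzf2 cells held 32.2, 34.4, 41.9 and 46.0 CPM and Rag1 cells 2, 6, 2 and 1 UMIs. Ccl5-high cells held 47.0, 49.1, 131 and 173 CPM and Izumo1r cells 26.1, 18.6, 65.7 and 65.7 CPM on rows 12, 14, 16 and 18, so that Lgals3 on the even rows differed more between rows than Ikzf2 cells did between theirs.

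**Figure D1:**
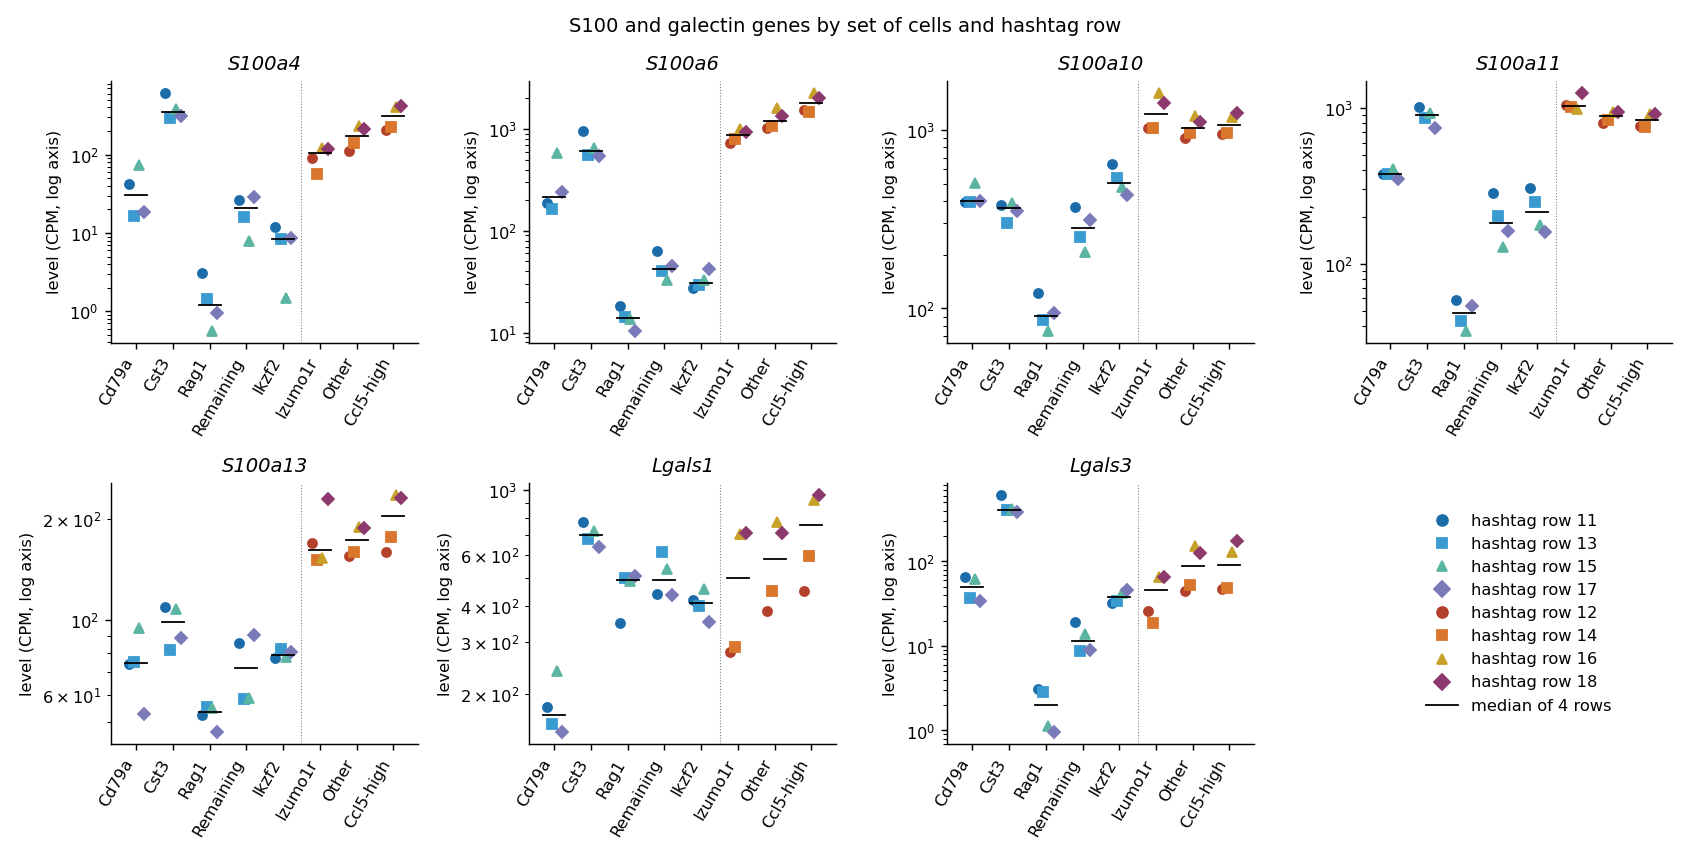
Level of each gene in CPM on a log axis, by set of cells (horizontal axis), with 1 point for each hashtag row and a bar at the median of 4 rows; the dotted line separates sets of odd rows, on its left, from sets of even rows. S100a6 in the even-row sets lay between 727 and 2261 CPM and in Ikzf2 cells between 27.1 and 42.0 CPM, whereas Lgals1 in Rag1 cells, at 350 to 506 CPM, lay within the range of the Izumo1r cells.

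The first comparison set all cells of the even rows against Ikzf2 cells of the odd rows, a set named for the gene of Helios, a marker of strongly signalled thymocytes. A gene was called where every row of one side lay beyond every row of the other and the medians differed at least 2-fold on the log2(CPM + 10) scale, which understates low genes. S100a4, S100a6, S100a10, S100a11 and S100a13, 5 of 7 members, were called higher, beside 6.83% of the 6693 genes tested, and no member was called lower, beside 8.38%. S100a6 differed by 4.94 on this log2 scale (medians 1252 and 31.0 CPM), S100a4 by 3.40 (188 and 8.45 CPM) and S100a11 by 2.02 (889 and 214 CPM). S100a4 entered the comparison only through the even rows, since a gene was tested where the mean of both medians reached 20 CPM and the Ikzf2 cells were far under it, and so had to differ. S100a10 and S100a13, at 1.06 each, were at the 2-fold limit. Leaving out row 16 or row 18, thinning each cell to 1500 UMIs, or keeping cells of at most 4000 genes took away both calls and left 3 members, and leaving out row 15 or row 17 took away that of S100a10. For Lgals1, at 0.52, and Lgals3, at 0.87, the rows of both sides overlapped, and without row 12 Lgals3 was called as well. The median over the 7 members was 1.06 and over all genes tested -0.18.

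With median-of-ratios scaling the median of all genes went to 0.05, the split from 457 higher and 561 lower genes to 618 and 369, and Lgals3 was called as well. The Ikzf2 cells also differed in cycling markers, at a summed median of 1680 CPM against 201 to 281 CPM in the even-row sets, and in depth, at a median of 5518 UMIs a cell against 3296 to 3784. Among cells without any cycling marker, S100a6 was at 42.8 to 132 CPM in Ikzf2 cells and at 1125 to 1625 CPM on the even rows. S100a10 in the same cells was at 549 to 751 CPM and at 927 to 1239 CPM, and S100a13 at 93.6 to 108 CPM and at 153 to 199 CPM, so that neither overlapped. Their medians in these cells (1070 and 629 CPM for S100a10, 178 and 97.6 CPM for S100a13) were less than 2-fold apart, so neither would have been called.

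Within the even rows, Ccl5-high cells were set against Izumo1r cells row by row, and a gene was called where all 4 rows went one way and the median of the rows was at least 2-fold. Ccl5 encodes a chemokine of effector cells and Izumo1r a folate receptor family protein of early iNKT1 cells. S100a4 and S100a6 were called higher in Ccl5-high cells, 2 of 7 members, beside 0.425% of the 6112 genes tested, and no member was lower by the same rule, beside 0.262%. For S100a4 the ratio of CPM was 2.29 (95% exact interval 1.61 to 3.36), 3.90 (2.74 to 5.73), 3.26 (2.33 to 4.66) and 3.56 (2.832 to 4.499) on rows 12, 14, 16 and 18. For S100a6 it was 2.12 (1.87 to 2.41), 1.85 (1.67 to 2.04), 2.25 (1.99 to 2.55) and 2.14 (1.96 to 2.33). Every interval lay above 1, and these intervals cover counting error only.

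S100a11 went the other way on all 4 rows, with ratios of 0.741, 0.742, 0.923 and 0.729, and the interval on row 16 (0.795 to 1.07) held 1. S100a10 was lower as well, at 0.928, 0.934, 0.731 and 0.876, with intervals that held 1 on rows 12 and 14. S100a4 and S100a6 were therefore both higher in Ccl5-high cells, while S100a11 and S100a10 were both lower, by less than 2-fold. Lgals3 was higher on 4 of 4 rows at a median of 0.97 on the log2 scale, just under the limit, and was called in 8 of 16 alternative settings, among them without row 12 and without row 16. Lgals1 was higher on 4 of 4 rows at 0.55. S100a13 was higher on 3 of 4 rows at 0.12. The median over the 7 members was 0.55, and over all genes tested -0.03. Both sets were alike in depth, at medians of 3533 and 3784 UMIs a cell, and in the summed level of myeloid markers, at medians of 309 and 300 CPM, while cycling markers summed to 201 and 281 CPM. The 6 NK1.1-positive iNKT1 markers summed to medians of 3240 and 3172 CPM, but single markers differed: Zbtb16, which encodes PLZF, was at 25.2 to 46.3 CPM in Ccl5-high and 130 to 138 CPM in Izumo1r cells, and Nkg7 at 1679 to 1889 CPM and 1185 to 1505 CPM. Their part in these ratios was not tested.

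**Figure D2:**
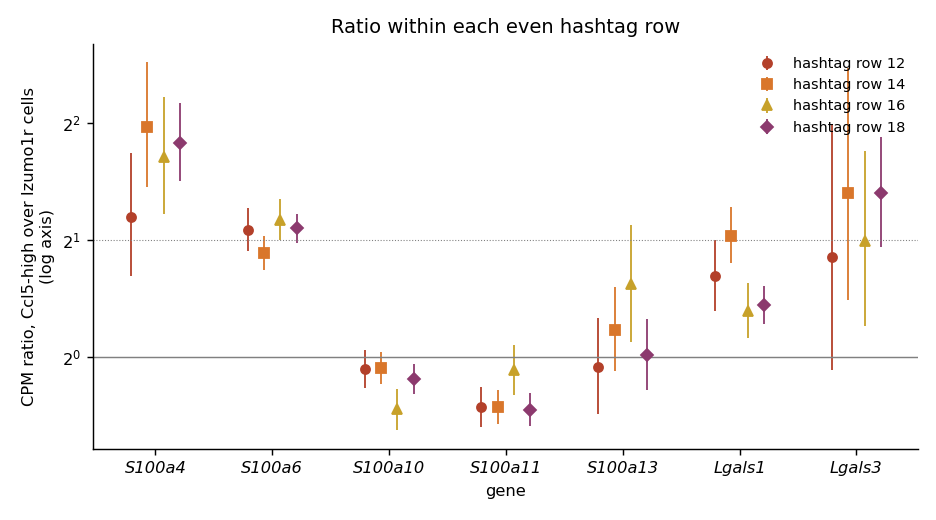
Ratio of CPM in Ccl5-high over Izumo1r cells for each gene (horizontal axis) on a log axis, 1 point for each even hashtag row with its exact 95% interval for counting error; the solid line marks equal levels and the dotted line a 2-fold ratio. S100a4, at 2.29 to 3.90, and S100a6, at 1.85 to 2.25, lay above 1 on all rows, and S100a10 and S100a11 lay below it.

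The share of cells with at least 1 UMI was taken after thinning each cell to 1500 UMIs. S100a6 was seen in 83.0% of Ccl5-high cells (exact 95% interval 80.6 to 85.2%), in 58.8% of Izumo1r cells (54.6 to 63.0%), in 6.36% of Ikzf2 cells and in 3.88% of Rag1 cells. S100a4 was seen in 25.8% of Ccl5-high cells (23.2 to 28.5%), 7.45% of Izumo1r cells (5.37 to 10.0%), 1.18% of Ikzf2 cells and 0.728% of Rag1 cells. The intervals pool the cells of 4 rows and do not cover differences between rows. By row, S100a6 was seen in 79.7 to 91.2% of Ccl5-high and 54.6 to 62.5% of Izumo1r cells. S100a4 was seen in 21.1 to 35.7% and 6.12 to 11.1% of these sets. Rag1 cells, with a median of 13562 UMIs before thinning against 3533 and 3784 in the even-row sets, had the least of both genes and are given as the background. Thinning left out no Ccl5-high cell, 1 Izumo1r cell, 6 Ikzf2 cells and 6 Rag1 cells. Without thinning, S100a6 was seen in 94.8% of Ccl5-high, 75.7% of Izumo1r, 18.9% of Ikzf2 and 16.99% of Rag1 cells, and S100a4 in 45.005%, 20.6%, 4.34% and 1.67% of the same sets.

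Among the odd rows, Cst3 cells stood above Ikzf2 cells for 4 of 7 members, beside 6.85% of 6756 genes called higher, and below for none, beside 4.71%. The differences on the log2 scale were 4.47 for S100a4, 3.90 for S100a6, 3.13 for Lgals3 and 1.96 for S100a11. Lgals1 was higher on 4 of 4 rows but at 0.79 was under 2-fold. S100a4 passed the filter only through the Cst3 cells. S100a10 was lower on 4 of 4 rows, at -0.51, opposite to S100a11, which lies close to it on the chromosome. S100a13 differed by 0.28 and on 3 of 4 rows. The median over the members was 1.96 and over all genes tested -0.24. Under median-of-ratios scaling, where that median moved to 0.01, the split of all genes went from 463 higher and 318 lower to 606 and 205, and Lgals1 was called as well. Median depth was 10487 UMIs a cell in Cst3 cells and 5518 in Ikzf2 cells.

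The Cst3 cells were not uniform. Split further by markers of the 2 conventional dendritic cell types, 408 cells had a UMI of Xcr1 or Clec9a (type 1 markers) and 277 had Sirpa, a type 2 and myeloid marker, with neither of these. S100a4 was at 1469, 1323, 1325 and 1310 CPM in the Sirpa cells of rows 11, 13, 15 and 17 and at 109, 64.5, 60.1 and 15.02 CPM in the Xcr1 or Clec9a cells. S100a6 was at 1963, 1912, 2139 and 2192 CPM in the Sirpa cells and at 360, 319, 272 and 183 CPM in the others. The S100a4 and S100a6 of the Cst3 set thus lay mostly in its Sirpa cells, at levels of S100a6 within the range of Ccl5-high cells. Lgals3 was at 923, 833, 892 and 1161 CPM in the Sirpa cells and at 503, 457, 428 and 477 CPM in the Xcr1 or Clec9a cells, so that it was well counted in both. S100a10 was higher in the Sirpa cells on 4 of 4 rows by a median of 1.43 on the log2 scale, Lgals1 by 1.02 and S100a13 by 0.80. S100a11, at 0.16 and higher on 3 of 4 rows, was alike in both, at medians of 1226 and 1101 CPM. Median depth over the rows was 8545 to 9567 UMIs in the Sirpa cells and 11401 to 12236 in the Xcr1 or Clec9a cells. The share of all genes that differ between these cells was not computed.

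Cd79a cells were set against Ikzf2 cells with 6 members tested, since the mean of the medians of S100a4 in both sets was under the 20 CPM filter. S100a6 was called higher, at 2.34, beside 7.24% of 6577 genes, and Lgals1 lower, at -1.19, beside 15.7%. The median over all 7 members, with the untested S100a4 at 0.94, was 0.28 and over all genes tested -0.49. The call of Lgals1 was lost with median-of-ratios scaling, which moved the median of all genes to -0.01 and the split from 476 higher and 1035 lower to 715 and 339, and with thinned cells or the mean of the cells' CPM. Without row 13, 4 members were called, with S100a4 and S100a11 added, without row 11 S100a11 was added, and without row 17 S100a4. The S100a6 of Cd79a cells was held by few cells: the top 10% of the cells held 89.0% of its UMIs, with up to 69 in 1 cell, and 11.8% of cells had a UMI after thinning.

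In Rag1 cells, 3 of the 6 members tested (all but S100a4) were called lower than in Ikzf2 cells, beside 4.74% of 6545 genes, and none higher, beside 0.779%. S100a10 was lower by a log2 difference of -2.40, S100a11 of -2.11 and Lgals3 of -2.005. Lgals3 passed the filter only through the Ikzf2 cells, rested on 11 UMIs in the Rag1 cells and lost its call without row 15 or row 17 and with median-of-ratios scaling. S100a6 at -0.78 and S100a13 at -0.49 were lower on 4 of 4 rows, and Lgals1 was higher on 3 of 4 rows at 0.19. The median over all 7 members, with the untested S100a4 at -0.71, was -0.78 and over all genes tested -0.03. Rag1 cells had the highest cycling sum, 2551 to 2914 CPM, against 1399 to 1779 CPM in Ikzf2 cells, and more UMIs a cell, at medians of 13562 and 5518.

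Remaining cells matched none of the 4 gates, with thymocyte markers summing to 999 to 1235 CPM against 490 to 555 CPM in Ikzf2 cells and Helios-list markers to 665 to 1303 CPM against 1933 to 2224 CPM. The thymocyte list holds Rag1 and the Helios list Ikzf2, both of them gate genes. Lgals3, which passed the filter only through the Ikzf2 cells, was the single member called, lower at -1.19, beside 1.28% of 6704 genes, and no member was called higher, beside 0.283%. S100a10 was lower on 4 of 4 rows at -0.92, and without row 11 or row 17 it was called as well. S100a6, at 0.21, and Lgals1, at 0.26, were higher on 4 of 4 rows. The median over all 7 members, with the untested S100a4 at 0.68, was -0.11 and over all genes tested -0.01.

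Within the Ikzf2 cells, Lgals1 was higher in CPM in cycling cells and the other 6 members were lower. Cells with at least 2 UMIs summed over Mki67, Top2a, Birc5 and Ube2c (440 cells) were compared with cells holding none (418 cells). Lgals1 was at 532, 489, 544 and 418 CPM in cycling and at 271, 235, 279 and 200 CPM in non-cycling cells of rows 11, 13, 15 and 17, higher on 4 of 4 rows by a median of 0.99. Lgals3 was at 10.0, 17.1, 10.0 and 20.1 CPM in cycling and at 85.5, 55.5, 128 and 112 CPM in non-cycling cells, lower on 4 of 4 rows by a median of -2.14. The galectins thus went opposite ways. All 5 S100 members were lower in cycling cells on 4 of 4 rows, from -1.57 for S100a6 to -0.48 for S100a4. The cycling cells were deeper, at medians of 10698 to 12426 UMIs a cell against 3536 to 4496, and the part of depth in these differences was not tested. The share of all genes lower in CPM in cycling cells was not computed, so the members have no background here.

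On the even rows, between 677 cycling and 3494 non-cycling cells S100a6 differed by -0.07, S100a10 by 0.00, S100a11 by -0.03, S100a13 by 0.09 and Lgals3 by 0.13, none of them with the same sign on all rows. Lgals1 was higher in cycling cells on 4 of 4 rows, by a median of 0.58, and S100a4 on 4 of 4 rows by 0.66. Median depth there was alike, at 3412 to 3963 UMIs in cycling cells and 3230 to 3804 in the rest. Whether the effects differ between the Ikzf2 cells and the even rows was not tested, and no share of all genes was computed.

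Lgals3 had 328 UMIs in the Ikzf2 cells, where the top 10% of cells held 89.3% of them. The same share was 95.1% in Izumo1r cells, 87.0% in other even-row cells and 76.8% in Ccl5-high cells, so it was not particular to the Ikzf2 cells. Of the Ikzf2 cells 126 had at least 2 UMIs of Cd7, which encodes a surface glycoprotein bound by galectin-1 and high on iNKT1 cells, and 814 had none. Lgals3 was at 154, 257, 303 and 274 CPM in the Cd7 cells of rows 11, 13, 15 and 17 and at 13.6, 12.5, 17.5 and 18.2 CPM in cells without Cd7, a median log2 difference of 3.42. S100a6 was at 43.9, 102, 91.6 and 124 CPM against 27.1, 22.8, 26.3 and 33.3 CPM, at 1.56, and S100a11 differed by 0.85, each higher on 4 of 4 rows. The Cd7 cells thus held more of these 3 genes on every row, although their S100a6 stayed far under the even-row sets. S100a4 differed by 1.25, also on 4 of 4 rows, at 7.04 to 65.8 CPM against 1.25 to 6.81 CPM. S100a13 was higher by 0.57 on 4 of 4 rows, S100a10 by 0.46 on 3 of 4 rows and Lgals1 by 0.22 on 3 of 4 rows. Median depth was 4320 to 4991 UMIs in cells with Cd7 and 4518 to 6385 in cells without. Cd7 is on a list chosen with earlier results of these data known, so this split describes these cells and tests nothing. The share of all genes that differ with Cd7 was not computed.

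**Figure D3:**
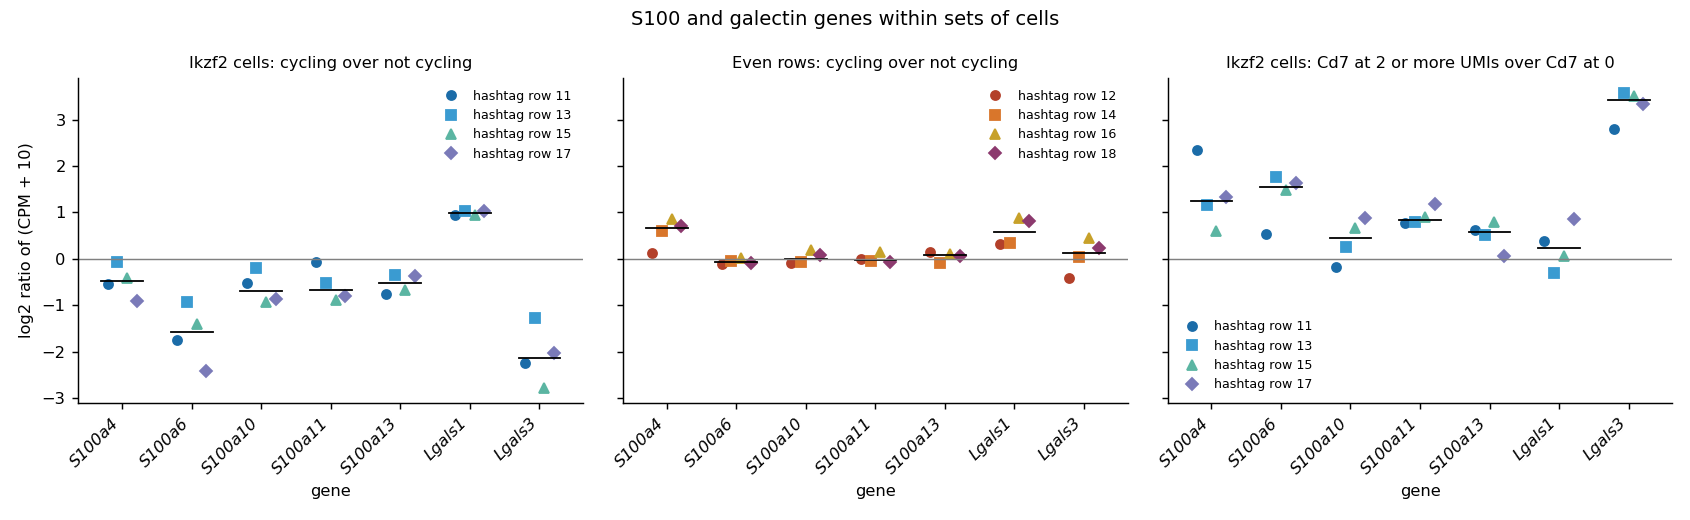
Log2 ratio of (CPM + 10) for each gene within the Ikzf2 cells and the even rows, 1 point for each hashtag row and a bar at the median: cycling over non-cycling cells (left and middle) and Ikzf2 cells with at least 2 Cd7 UMIs over those with none (right). In Ikzf2 cells Lgals1 was higher in cycling cells by 0.99 and Lgals3 lower by -2.14 at the median, and Lgals3 was 3.42 higher in cells with Cd7.

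After thinning, Lgals3 was seen in 41.6% of Cst3 cells (38.4 to 44.7%), 7.90% of Ccl5-high cells (6.34 to 9.70%), 7.27% of Ikzf2 cells (5.81 to 8.97%), 4.47% of Izumo1r cells (2.88 to 6.58%), 1.95% of remaining cells and 1 of 412 Rag1 cells. Unthinned shares were 72.1% in Cst3 cells, 16.9% in Ccl5-high cells, 13.2% in Ikzf2 cells, 10.97% in Izumo1r cells and 2.63% in Rag1 cells. The intervals of Ccl5-high and Ikzf2 cells overlapped, but they pool rows and do not cover differences between rows. By row, the thinned shares were 5.26 to 15.8% in Ccl5-high cells and 5.06 to 8.81% in Ikzf2 cells.

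Few relatives of the members were counted. Of the 12 genes listed as other S100 genes, which include the binding protein gene S100pbp, only S100pbp passed the 20 CPM filter in the comparisons with Ikzf2 cells, none in that of Ccl5-high with Izumo1r cells, and none was called. S100a1, a calcium-binding member best known from muscle, was at 27.6 to 35.7 CPM in Cst3 cells and at most 14.4 CPM in other sets. Among 8 galectin genes and relatives analysed, Lgals9, which encodes a tandem-repeat galectin, was highest in remaining cells, at 395 to 453 CPM, and Rag1 cells, at 371 to 452 CPM. In Ikzf2 cells it was at 267 to 318 CPM and on the even rows at 210 to 230 CPM. Lgals3bp, whose product binds galectin-3, was called higher on the even rows than in Ikzf2 cells, at 97 to 124 CPM against 35.8 to 47.5 CPM, and in Cd79a cells. Lgals8 was at 25.5 to 33.3 CPM on the even rows and not called.

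Of the 12 listed partners of S100 proteins, 10 were tested on the even rows against Ikzf2 cells. Ahnak, Anxa1 and Anxa6 were called higher, beside 6.83% of all genes, and none lower, beside 8.38%. Ahnak, a giant scaffold protein bound by the complex of S100a10 and annexin A2, was at 561 to 603 CPM on the even rows and at 22.1 to 31.7 CPM in Ikzf2 cells, a log2 difference of 3.92. Anxa1 was at 59.8 to 83.7 CPM against 0.568 to 6.78 CPM, so it passed the filter only through the even rows and had to differ. Anxa2, the partner of S100a10 itself, differed by 0.52 and was not called. In Rag1 cells Anxa2 was at 419 to 513 CPM, above Ikzf2 cells at 294 to 324 CPM, where S100a10 was lower on every row, so the 2 genes of this complex went opposite ways. In Cst3 cells, 4 partners (Anxa1, Anxa2, Anxa5 and Ahnak) of 10 tested were called higher, beside 6.85% of all genes, in Cd79a cells 2 of 10 (Anxa1 and Ahnak), beside 7.24%, and in Rag1 cells 3 of 8 (Anxa6, Myh9 and Tpm4) were called lower, beside 4.74%. Anxa1 again passed the filter only through the Cst3 and Cd79a cells. Between Ccl5-high and Izumo1r cells 10 were tested and none was called, beside only 0.425% of all genes called higher and 0.262% lower. Ahnak was higher there on 4 of 4 rows at 0.95.

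Galectin counter-receptors and glycan enzymes were tested for 9 of 12 on the even rows. Cd7, at 1100 to 1231 CPM against 132 to 137 CPM in Ikzf2 cells, and Cd44, at 143 to 163 CPM against 7.38 to 19.5 CPM, were called higher, beside 6.83% of all genes, and none lower, beside 8.38%. Cd44 passed the filter only through the even rows and so was bound to be higher there. Both encode surface glycoproteins that galectins bind. In Cst3 cells, of 11 tested, Cd44 and Havcr2, which passed only through the Cst3 cells, were called higher and Cd7, Mgat5 and St6gal1 lower, beside 6.85% and 4.71% of all genes. St6gal1 encodes a sialyltransferase whose product masks galectin-1 ligands, and it was at 10.5 to 18.8 CPM in Cst3 cells and 1.90 to 9.22 CPM in Rag1 cells, against 37.5 to 52.3 CPM in Ikzf2 cells. It passed the filter only through the Ikzf2 cells and so was bound to be lower in both other sets. In Cd79a cells, of 9 tested, Cd44, which passed only through the Cd79a cells, and Mgat1 were called higher and Cd7 and Mgat5 lower, beside 7.24% and 15.7% of all genes. In Rag1 cells Cd7, Ptprc and St6gal1 of 8 tested were lower, beside 4.74%, and in remaining cells Cd7 of 8, beside 1.28%. None of the 9 tested was called between Ccl5-high and Izumo1r cells, beside only 0.425% of all genes called higher and 0.262% lower.

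**Figure D4:**
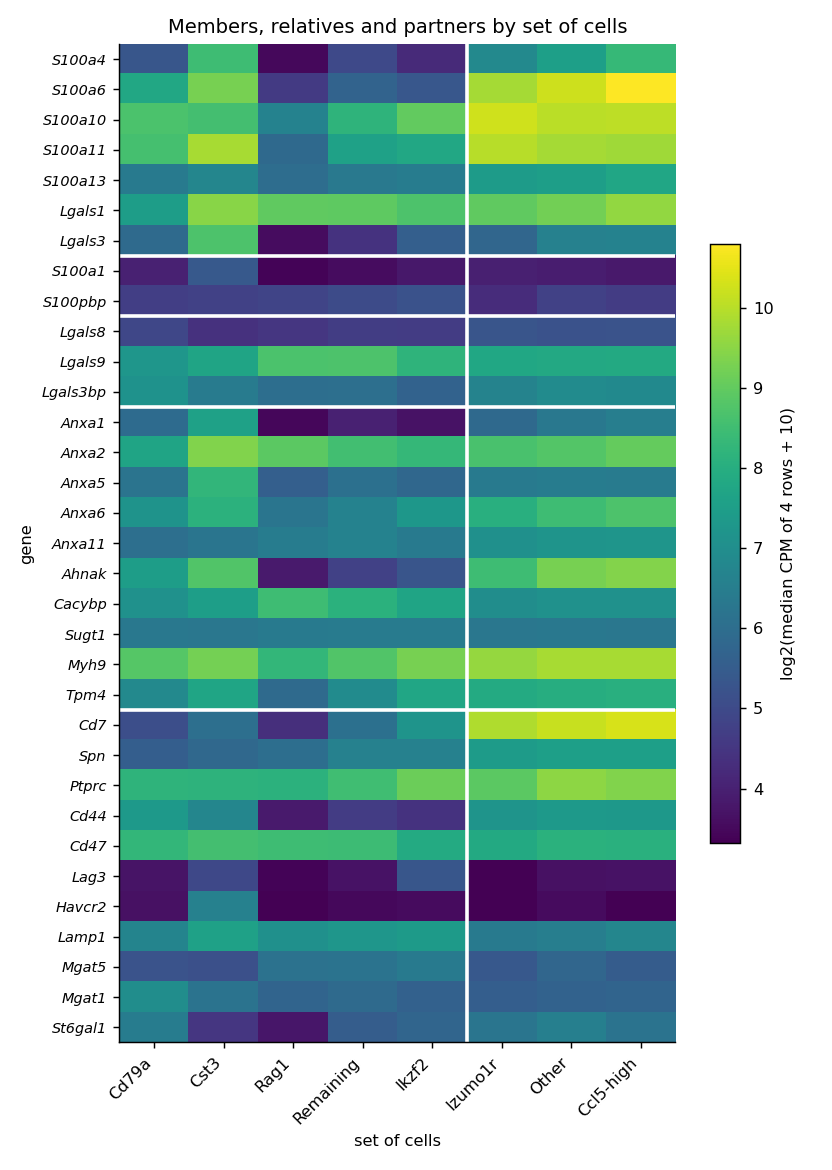
Median level over 4 hashtag rows as log2(CPM + 10), by set of cells (horizontal axis) and gene (vertical axis), for 33 genes that reached 20 CPM in a set; white lines separate, from the top, the 7 members, other S100 genes, other galectins, partners of S100 proteins and galectin counter-receptors, and odd-row from even-row sets. Ahnak and Cd7 share with S100a6 the high level in the even-row sets, and Lgals9 is highest in the remaining and Rag1 cells.

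Over the 32 combinations of row and set, and among 3350 genes, the gene most like S100a6 was Ahnak (Pearson r of 0.98), followed by Ostf1 and Sh3bgrl3 (0.97 each). The nearest to S100a4 were Tagln2 and Ostf1 (0.93 each) and Anxa1 (0.92), to S100a10 Ndfip1 and Evl (0.97 each) and Smpdl3a (0.96), and to S100a11 Tspo and Laptm5 (0.97 each) and Zfp36 (0.96). S100a13 was most like Pglyrp1, Fxyd5 and Lfng (0.95 each), and Lgals3 most like Jaml (0.95), Actb and Reep5 (0.91 each). Lgals1 had no gene above 0.85, its nearest being Atp5e (0.85), Bag1 and Anxa2 (0.84 each). These points share 1 library and differ in depth, so the correlations are descriptions without a test. Between members, S100a4 and S100a6 were at 0.92 over all 32 combinations and at 0.97 over the 12 of the even rows. On the same 12, S100a6 and S100a11 were at -0.43 although they were at 0.92 over all 32, and Lgals1 and Lgals3 were at 0.92 against 0.27 over the 20 combinations of the odd rows.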

How the data were processed

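One transcript library and one hashtag library of pooled, sorted thymic cells were used. The deposited counts are raw whole-number UMI counts of genes and hashtags in each barcode, which the authors obtained by running Cell Ranger 6.0.0 on a ready-made mm10 mouse reference. Barcodes were kept (12147) if 1000 genes or more were seen and mitochondrial UMIs made up 5% or less, and were given to a hashtag row where at least 80% of at least 10 hashtag UMIs lay on it, which left 10007 cells and removed doublets between hashtags. No doublet caller was run.

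UMIs were summed over the cells of each row and set and scaled to CPM of all gene UMIs. Gates on odd rows, in order, were at least 2 UMIs of Cd79a, 5 of Cst3, 1 of Rag1 and 2 of Ikzf2. On even rows they were at least 4 UMIs of Ccl5, or at least 2 of Izumo1r with none of Ccl5. A gene was tested where the mean of the median CPM of both sides reached 20. Calls used a 2-fold limit on log2(CPM + 10). The smallest set held 58 cells in a row. Rows cannot be tied to populations, so the matrix is 1 pooled sample without replicates, no p-value was computed, and exact 95% Poisson and binomial intervals cover counting error only. Python 3.11.15 with numpy 2.4.6, scipy 1.17.1 and pandas 2.3.3 was used, and the scripts were tested on simulated data. Sequences and positions are from RefSeq, GRCm38.p6. The named genes are the 7 members, the gate genes, lists of relatives and partners with at least 20 CPM in a set, and the 3 genes most like each member. The members and lists were chosen with earlier results of these data known, and the split of Cst3 cells, like the values of Kidins220, S100a8 and S100a9, was added after the data had been seen. Alternatives changed the cell filters, scaling, gates, pseudocount, fold limit and rows included.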

Additional observations from a re-analysis of the deposited data

Results flagged for a closer look

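In 3 of 56 sets of 4 rows, 1 row lay far from the other three by Dixon's criterion, which chance does in about 1 of 20 sets. S100a10 in Cd79a cells was at 507 CPM on row 15 and at 392 to 402 CPM on the other rows. Lgals1 in Rag1 cells was at 350 CPM on row 11 and at 486 to 506 CPM elsewhere, and the Rag1 cells of that row had a median of 3685 UMIs a cell against 14409 to 15274 on the others. The part of depth in this value was not tested. Lgals3 in Cst3 cells was at 619 CPM on row 11 and at 385 to 418 CPM elsewhere. Of the 390 Cst3 cells of that row 147 had Sirpa without Xcr1 or Clec9a, against 50 of 271, 54 of 215 and 26 of 96 on rows 13, 15 and 17. Within those Sirpa cells row 11, at 923 CPM, lay inside the range of the other rows, 833 to 1161 CPM. In the Xcr1 or Clec9a cells row 11, at 503 CPM, lay above the other rows, at 428 to 477 CPM.

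S100a4 went opposite ways with cycling in the 2 places where it was compared. Cycling over non-cycling cells gave a median of -0.48 on the log2(CPM + 10) scale in Ikzf2 cells, with 4 of 4 rows below 0 (-0.90 to -0.07), and of 0.66 on the even rows, with 4 of 4 rows above 0 (0.13 to 0.86). The difference between these effects was not tested, and S100a4 in the Ikzf2 cells rested on levels of 0.772 to 21.4 CPM.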

How the results depend on the processing

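The comparisons were recomputed under 16 to 20 alternatives, and no called member changed sign. Of the counts of called genes and members 163 stayed within 1.5 times and 37 did not; the causes were not tested. Of 1018 genes on the even rows against Ikzf2 cells, 430 were called with a pseudocount of 50 CPM and 2261 at a 1.5-fold limit. Of 42 between Ccl5-high and Izumo1r cells, 97 were called with higher gates, 72 with a pseudocount of 1 CPM, 13 with 50 CPM and 174 at 1.5-fold. Of 781 in Cst3 cells, 1320 were called with cells of at most 4000 genes, 1189 with thinned cells, 1370 with higher gates, 351 with 50 CPM and 1725 at 1.5-fold. Of 1511 in Cd79a cells, 624 were called with 50 CPM and 3280 at 1.5-fold. Of 361 in Rag1 cells, 564 were called at 4000 genes, 624 with thinned cells, 124 with 50 CPM and 942 at 1.5-fold. Of 105 in remaining cells, 208 were called at 4000 genes, 163 with thinned cells and with a pseudocount of 1 CPM, 187 with higher gates, 29 with 50 CPM and 331 at 1.5-fold.

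Of the 5 members called on the even rows, 3 were called at 4000 genes, with the mean of the cells' CPM and with thinned cells. Of 2 in Cd79a cells, 1 was called with the mean of the cells' CPM and with thinned cells. Of 1 in remaining cells, 2 were called with higher gates and at 1.5-fold, and 0 with 50 CPM. Leaving out 1 row at a time gave 997 to 1044 genes and 3 to 6 members on the even rows, 41 to 64 genes (64 without row 14) and 2 to 3 members between Ccl5-high and Izumo1r cells, 744 to 828 genes and 4 members in Cst3 cells, 1450 to 1656 genes and 2 to 4 members in Cd79a cells, 341 to 381 genes and 2 to 3 members in Rag1 cells, and 100 to 124 genes and 1 to 2 members in remaining cells. S100a4, S100a6 and S100a11 on the even rows and in Cst3 cells, and S100a4 and S100a6 in Ccl5-high cells, were called under every alternative. The Rag1 cells held 7 UMIs of S100a4 and 11 of Lgals3, so ratios to that set are loosely bounded by the counts. No paired analysis was possible because the rows carry no replicate number of a labelled group.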

Other observations

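On the even rows, S100a4, Lgals1 and Lgals3 fell into separate clusters of rows. Over all cells of rows 12, 14, 16 and 18, Lgals3 was at 43.8, 48.7, 135 and 122 CPM, Lgals1 at 391, 466, 791 and 748 CPM, and S100a4 at 133, 150, 246 and 226 CPM. Rows 16 and 18 lay above rows 12 and 14 for all 3 genes, and did so within Ccl5-high, Izumo1r and other cells alike. S100a6 was at 1123, 1126, 1612 and 1378 CPM, S100a10 at 916, 962, 1257 and 1179 CPM, S100a11 at 812, 835, 944 and 988 CPM, and S100a13 at 157, 162, 191 and 201 CPM, each again higher on rows 16 and 18. S100a6 and S100a10 were also higher on rows 16 and 18 within each of the 3 sets. In Izumo1r cells S100a11 and S100a13 on row 16 lay below row 12. Rows 16 and 18 also had more UMIs a cell, at medians of 3804 and 3663 against 3313 and 3258. Kidins220 was at 28.4, 35.2, 17.5 and 20.4 CPM on rows 12, 14, 16 and 18. No source used here says what these rows are. The share of all genes that separates rows 16 and 18 from rows 12 and 14 was not computed.

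S100a8 and S100a9, which encode the calprotectin subunits of neutrophils, were counted almost wholly in 2 places. The remaining cells of row 13 held 863 UMIs of S100a8 and 1680 of S100a9, at 303 and 590 CPM. The Cd79a cells of row 15 held 55 and 94 UMIs. All other kept cells held 2 UMIs of each gene. Among Cd79a cells those of row 15 were also highest for every member except Lgals3. They held S100a6 at 585 CPM, S100a4 at 73.0 CPM, S100a10 at 507 CPM, S100a11 at 407 CPM, S100a13 at 94.8 CPM and Lgals1 at 240 CPM.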
